A study of Mus musculus with 8 samples.

Results

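The 10 genes described here, H2-K1, H2-D1, B2m, Tap1, Tap2, Tapbp, Psmb8, Psmb9, Psmb10 and Nlrc5, encode core parts of the MHC class I antigen presentation machinery. They were chosen by name, out of the 32285 genes of the count table, and all 10 had UMIs (unique molecular identifiers, each marking 1 captured transcript). Class I molecules display peptides from the inside of a cell to CD8 T cells. The proteasome cuts proteins into peptides, the TAP transporter carries the peptides into the endoplasmic reticulum, tapasin helps load them onto a heavy chain paired with beta 2-microglobulin, and the complex travels to the cell surface. Interferon gamma raises the transcription of these genes, swaps the catalytic subunits of the proteasome for those of the immunoproteasome and acts in part through the transactivator NLRC5. In autoimmune diabetes this pathway is best known on beta cells, but the cells measured here were the immune cells of the graft.

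Gene expression was measured by droplet single-cell RNA sequencing of CD45+ immune cells sorted from grafts of NIT-1 cells, a beta cell line derived from NOD mice. Each NOD.scid host, which lacks T and B cells of its own but keeps myeloid and NK cells, carried a WT graft in one flank and an Rnls mutant graft in the other. It then received splenocytes of recently diabetic NOD mice, and grafts were taken 10 or 17 days after that transfer. The mutation was in the grafted cells, so every sorted cell came from a host or donor without it, in all 4 groups. The groups were Rnls mutant day 10, Rnls mutant day 17, WT day 10 and WT day 17, with 4 grafts each and 16 in all. Each group was a single library whose 4 grafts were told apart by hashtag antibodies, so genotype, day and library cannot be told apart, whereas cell types were compared within libraries. The hashtag antibody clones bind MHC class I and CD45 on the cell surface. Host age and sex were not used here.

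The table held 22441 cells with 1001 to 42012 UMIs per cell and a median of 3520. The median per group was 3453.5 in Rnls mutant day 10, 3083 in Rnls mutant day 17, 3382 in WT day 10 and 5902 in WT day 17, which had the deepest cells and the fewest of them, 2690. Per graft, the sums held 1742746 to 9729233 UMIs. Across libraries, 42 cell barcodes occurred in 2 of them. The labels name beta cells, but the beta cell markers checked summed to at most 5.26 CPM in any cell type. Deposited immune cell types carried their own markers, such as 5931 CPM of the macrophage list in macrophages against 1022 in monocytes. The CD4 T cell list was higher in Treg (3382) than in CD4 T cells (3072). Stem cell markers were not checked. Cells deposited as Stem-Progenitor were highest for the cycling list (2807) and second for the NK cell list (7315, against 9756 in NK cells). UMIs were summed per graft and cell type where the graft had at least 10 cells of the type. Of the 12 types, 7 had at least 3 such grafts in every group: macrophages, monocytes, dendritic cells (DCs), CD4 T cells, CD8 T cells, regulatory T cells (Treg) and NK cells. All 10 members passed the filter on low counts in each of the 7. Levels are given as CPM (the UMIs of a gene in that cell type of that graft, scaled so that every sum has the same total), with the SD over grafts, and were compared within a gene and not between genes. The reference genome is of the C57BL/6 strain, whereas the class I heavy chains of NOD mice are of other alleles and belong to a family of near-identical genes, so the split of UMIs between H2-K1, H2-D1 and the H2-Q and H2-T genes is uncertain.

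Of the 10 genes, 7 lie within 1352 kb of chromosome 17 in the GENCODE annotation of GRCm38, from Tapbp (chr17:33915899-33929292) and H2-K1 (chr17:33996017-34000347, minus strand) through Psmb9 (chr17:34181987-34187764, minus strand), Tap1 (chr17:34187553-34197225), Psmb8 (chr17:34197721-34201454) and Tap2 (chr17:34203527-34216321) to H2-D1 (chr17:35262730-35267499). The other members are B2m (chr2:122147686-122153083), Nlrc5 (chr8:94434356-94527272) and Psmb10 (chr8:105935735-105938444, minus strand). The promoters of the heavy chains and B2m are shown because these genes encode the class I molecule whose levels are set beside the rest, and that of Tap1 because it is shared with Psmb9. The Tap1 and Psmb9 start sites in RefSeq lie 225 bases apart and are transcribed away from each other, and the sequence printed is exactly the stretch between them. Each sequence is the 225 bases before the RefSeq start site of the gene (GRCm38.p6), on the gene's own strand, at chr17:34000348-34000572 (minus) for H2-K1, chr17:35262869-35263093 (plus) for H2-D1, chr2:122147462-122147686 (plus) for B2m and chr17:34187331-34187555 (plus) for Tap1. Capitals mark the motifs searched.
H2-K1: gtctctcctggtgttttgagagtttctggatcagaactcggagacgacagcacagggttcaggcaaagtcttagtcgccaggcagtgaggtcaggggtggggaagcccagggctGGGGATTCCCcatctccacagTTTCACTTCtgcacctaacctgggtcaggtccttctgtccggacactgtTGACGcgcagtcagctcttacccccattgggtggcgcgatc
H2-D1: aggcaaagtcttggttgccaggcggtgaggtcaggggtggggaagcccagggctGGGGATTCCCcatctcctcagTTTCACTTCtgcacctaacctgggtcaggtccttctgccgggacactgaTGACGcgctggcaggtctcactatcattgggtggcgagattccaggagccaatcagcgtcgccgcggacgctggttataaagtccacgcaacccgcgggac
B2m: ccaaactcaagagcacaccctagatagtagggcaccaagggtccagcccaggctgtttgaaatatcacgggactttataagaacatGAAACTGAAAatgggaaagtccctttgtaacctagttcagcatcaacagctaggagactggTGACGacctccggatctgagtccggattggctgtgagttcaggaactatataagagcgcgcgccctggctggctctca
Tap1: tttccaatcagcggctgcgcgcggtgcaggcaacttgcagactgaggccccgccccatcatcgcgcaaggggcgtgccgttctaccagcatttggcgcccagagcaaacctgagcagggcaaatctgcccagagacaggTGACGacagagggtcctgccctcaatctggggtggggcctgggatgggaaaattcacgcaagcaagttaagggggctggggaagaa
The motifs were read on both strands: the interferon-stimulated response element spellings GAANNGAAA and GAAANNGAAA, the kappa B spelling GGGNNTTCCC and the cyclic AMP response element core TGACG. They were chosen with the sequences in view and did not overlap each other in these promoters. Of 32851 promoters of the same length, 5.64% held GAANNGAAA, 2.62% GAAANNGAAA, 1.40% GGGNNTTCCC and 16.8% TGACG. H2-K1 and H2-D1 held the same arrangement, with GGGNNTTCCC first (bases -111 to -102 and -171 to -162 from the start site), GAANNGAAA next (-90 to -82 and -150 to -142) and TGACG last (-41 to -37 and -101 to -97). B2m held GAAANNGAAA at -139 to -130 and TGACG at -78 to -74. Of the 8 members with a promoter in the RefSeq table, 5 held TGACG, the others being Tap1 (-86 to -82) and Psmb9 (-144 to -140). The last 2 are a single match read from both ends of the shared stretch, so the distinct matches were 4. These are matches of letters and not measured sites.

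The heavy chains and beta 2-microglobulin were abundant in each of the 7 tested types and differed little between them. H2-K1, one of the classical heavy chains that bind peptide, stood at 2146 ± 272 CPM (SD, n = 14 grafts) in Treg, 2015 ± 246 (n = 16) in macrophages, 1756 ± 185 (n = 16) in NK cells, 1694 ± 233 (n = 16) in CD8 T cells, 1538 ± 199.9 (n = 16) in CD4 T cells, 1463 ± 246 (n = 16) in DCs and 1364 ± 146 (n = 15) in monocytes. H2-D1, the other classical heavy chain, followed a similar order, from 3568 ± 615 in Treg and 3268 ± 399 in macrophages through 2793 ± 363 in CD8 T cells, 2706 ± 347 in NK cells, 2615 ± 517 in DCs and 2601 ± 389 in monocytes to 2420.3 ± 287 in CD4 T cells. B2m, the light chain of every class I molecule, ran from 3054 ± 326 in macrophages and 3048 ± 285 in Treg through 2904 ± 195 in monocytes, 2541 ± 238 in CD8 T cells, 2429.7 ± 398 in DCs and 2370.1 ± 150.4 in CD4 T cells to 2114 ± 257 in NK cells. The same numbers of grafts per type apply to every member. The highest type exceeded the lowest by 1.57-fold for H2-K1, 1.47-fold for H2-D1 and 1.44-fold for B2m, and did so in each of the 14, 14 and 16 grafts that held both types (two-sided exact sign-flip permutation test, p = 0.00012207, 0.00012207 and 3.05176e-05, the smallest values that 14 and 16 pairs allow). The types of each pair were picked by their means in these same grafts, and grafts of 1 host counted as separate. These p-values are therefore descriptions, with no adjustment for the choice.

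**Figure D1:**
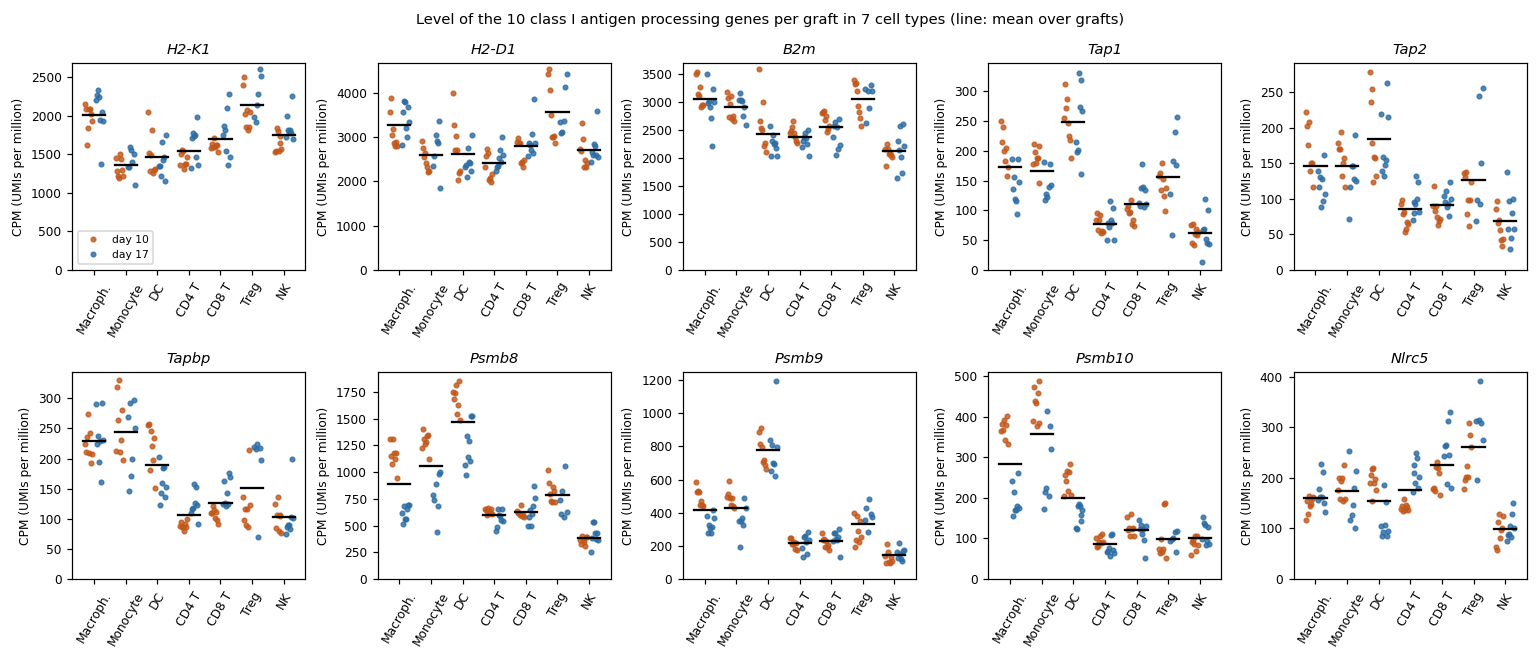
Each panel shows the level of 1 gene in CPM (linear axis from 0) in 7 cell types, with a point per graft coloured by day and a line at the mean over grafts. The 3 genes of the class I molecule itself vary by at most 1.57-fold between types, whereas Psmb9 is highest in DCs, at 780.3, and lowest in NK cells, at 142.

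The transporter and loading genes varied more, with DCs or monocytes at the top and NK cells at the bottom among the 7 tested types. Tap1, one chain of the peptide transporter, stood at 248 ± 50.0 in DCs, 173 ± 44.1 in macrophages, 167 ± 31.6 in monocytes, 155 ± 50.3 in Treg, 111 ± 26.2 in CD8 T cells, 77.7 ± 18.3 in CD4 T cells and 62.4 ± 24.7 in NK cells, a span of 3.97-fold. Tap2, its partner, stood at 184 ± 52.0 in DCs, 146 ± 32.6 in monocytes, 146 ± 39.6 in macrophages, 127 ± 58.7 in Treg, 90.6 ± 17.7 in CD8 T cells, 85.6 ± 21.9 in CD4 T cells and 68.5 ± 29.1 in NK cells, a span of 2.69-fold. DCs were above NK cells in all 16 grafts for both transporter genes. Tapbp, which encodes tapasin, the chaperone that holds the class I molecule at the transporter, stood at 245 ± 54.8 in monocytes, 228 ± 35.1 in macrophages, 189 ± 43.8 in DCs, 152 ± 59.2 in Treg, 125 ± 25.3 in CD8 T cells, 107 ± 23.9 in CD4 T cells and 103 ± 31.0 in NK cells. Its span was 2.38-fold, with monocytes above NK cells in all 15 grafts with both.

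Over the 7 tested types, the immunoproteasome subunits Psmb9 and Psmb10 had the widest spans of the members in fold. Psmb8 lay just below Tap1. Psmb8, the chymotrypsin-like subunit that takes the place of Psmb5, stood at 1467 ± 283 in DCs, 1054 ± 294 in monocytes, 891 ± 293 in macrophages, 785 ± 142 in Treg, 629 ± 91.1 in CD8 T cells, 599 ± 64.0 in CD4 T cells and 386 ± 72.9 in NK cells, a span of 3.80-fold. Psmb9, which takes the place of Psmb6, stood at 780.3 ± 139.6 in DCs, 426 ± 96.9 in monocytes, 415 ± 96.8 in macrophages, 332 ± 86.2 in Treg, 231 ± 43.8 in CD8 T cells, 214 ± 40.4 in CD4 T cells and 142 ± 37.7 in NK cells, a span of 5.50-fold. For both, DCs were above NK cells in 16 of 16 grafts. Psmb10, which takes the place of Psmb7, had a different order, with monocytes at 358 ± 105, macrophages at 283 ± 95.0 and DCs at 200.3 ± 51.2, then CD8 T cells at 121 ± 25.2, NK cells at 101 ± 25.9, Treg at 99.6 ± 41.8 and CD4 T cells at 85.7 ± 17.9. Monocytes exceeded CD4 T cells by 4.18-fold, in 15 of 15 grafts.

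Nlrc5, the transactivator of the class I genes, was highest in Treg and CD8 T cells and lowest in NK cells among the 7 tested types. It stood at 261 ± 63.2 in Treg, 226 ± 49.3 in CD8 T cells, 175 ± 39.9 in CD4 T cells, 174 ± 42.1 in monocytes, 159.9 ± 28.1 in macrophages, 154 ± 50.7 in DCs and 99.1 ± 25.2 in NK cells. Treg exceeded NK cells by 2.64-fold, in 14 of 14 grafts (two-sided exact sign-flip permutation test, p = 0.00012207). This pair was also picked by its means in these grafts, so the p-value is a description.

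Many neighbours in these orders were not told apart. Of the 60 neighbouring pairs of types over the 10 members, 24 passed the exact sign-flip test with Benjamini-Hochberg adjustment over the pairs, 24 also with adjustment over all genes for that pair of types, and 29 had an unadjusted exact permutation p under 0.05. Over all genes with a mean of at least 20 CPM, 47.5% of the same pairs passed. The steps that passed were macrophages above NK cells and CD8 above CD4 T cells for H2-K1, macrophages above CD8 T cells for H2-D1, and monocytes above CD8 T cells and CD4 T cells above NK cells for B2m. For Tap1 they were DCs above macrophages, Treg above CD8 T cells, CD8 above CD4 T cells and CD4 T cells above NK cells, for Tap2 DCs above monocytes, and for Tapbp macrophages above DCs and CD8 above CD4 T cells. DCs were above monocytes, Treg above CD8 T cells and CD4 T cells above NK cells for both Psmb8 and Psmb9, and monocytes above macrophages for Psmb8. For Psmb10 the steps were monocytes above macrophages, macrophages above DCs and DCs above CD8 T cells, and for Nlrc5 CD8 above CD4 T cells and DCs above NK cells. The other steps, such as monocytes and macrophages for Psmb9 or CD8 and CD4 T cells for Psmb8, did not pass.

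Of the types with too few grafts for these tests, granulocytes stood at 5165 ± 1054 CPM for H2-D1 and 523 ± 251 for Nlrc5 (n = 12 grafts). Their B2m stood at 3641 ± 651, Tap2 at 241 ± 106 and Tapbp at 337 ± 132. Each of these means was above that of every tested type, and those of the other members were not. Granulocyte cells were the shallowest, with a median of 1319 UMIs. The cells deposited as Stem-Progenitor, the deepest of these 3 types at a median of 9652 UMIs, stood at 1009 ± 175 for H2-K1, 1744 ± 303 for H2-D1 and 1614 ± 182 for B2m (n = 12), each below the mean of all 7 tested types. ILC-1 stood at 1925 ± 326 for H2-K1 and 189 ± 65.4 for Psmb9 (n = 8). B cells (35) and mast cells (13) were too few in every graft, and pooled over all grafts their B2m was 3065 and 2799.

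Over both days together and within the same grafts, the peptide supply genes were higher in myeloid than in lymphoid cells. The genes of the class I molecule itself differed by 0.37 or less on the log2 scale, and the contrast was not run for each day. The contrast was the mean of macrophages, monocytes and DCs minus the mean of CD4 T cells, CD8 T cells, Treg and NK cells, with the graft as a block, over 7437 genes. Of the members 8 of 10 were higher and 0 lower at an adjusted p under 0.05, where of all genes tested 45.6% were higher and 38.2% lower. The log2 difference was 1.68 ± 0.07 (SE) for Psmb10, 1.49 ± 0.05 for Psmb9, 1.28 ± 0.06 for Tap1, 1.15 ± 0.05 for Psmb8, 1.12 ± 0.06 for Tapbp and 1.08 ± 0.06 for Tap2. It was 0.37 ± 0.03 for B2m and 0.20 ± 0.03 for H2-D1. Nlrc5 at 0.11 ± 0.06 (adjusted p = 0.0932) and H2-K1 at 0.06 ± 0.03 (adjusted p = 0.103) did not pass. The direction of the small values depended on the scaling: with total UMIs in place of TMM factors the median of all genes shifted by -0.22, 7 of 10 members were higher, and H2-K1 passed as lower (-0.16, adjusted p = 1.67745e-05 by edgeR), while H2-D1 at -0.02 (adjusted p = 0.604) and Nlrc5 at -0.11 (adjusted p = 0.122) did not pass. B2m and the 6 genes above 1 kept their direction and passed. Without graft 3 of WT day 17, all 10 members were higher, with H2-K1 at 0.08 (adjusted p = 0.0285) and Nlrc5 at 0.16 (adjusted p = 0.0169). At day 17, Psmb8 stood at 519 to 690.0 CPM in macrophages and 578 to 1060 in Treg. Psmb9 stood at 279 to 417 and 285 to 485 there, and Tap1 at 93.6 to 187 and 58.8 to 256. The ranges over grafts were 88.7 to 162 and 69.3 to 256 for Tap2, and 162 to 292 and 69.3 to 224 for Tapbp. Of the 6 genes above 1, only Psmb10 kept every macrophage value above every Treg value, at 156 to 261 and 66.7 to 118.

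**Figure D2:**
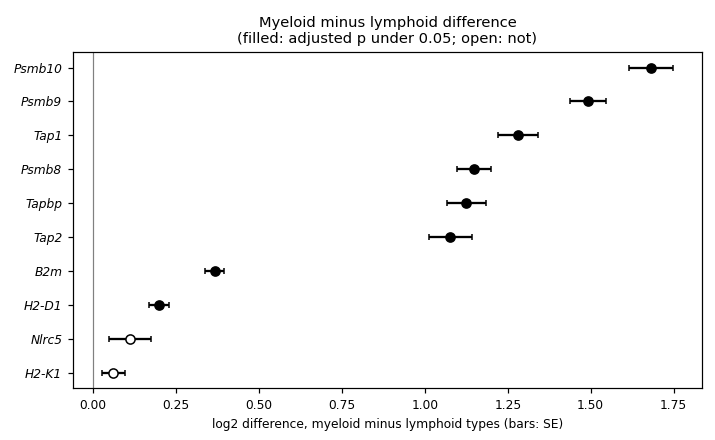
The log2 difference between myeloid and lymphoid types (x axis) is shown for the 10 members, with bars for the SE and filled points for an adjusted p under 0.05. Psmb10, at 1.68, to Tap2, at 1.08, lie apart from B2m, H2-D1, Nlrc5 and H2-K1, at 0.37 or less.

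The other genes of the pathway were taken from 4 lists. Of the constitutive proteasome and activator genes, 16 of 17 were higher in myeloid types and 0 lower (median log2 difference 0.92, against 0.07 over all genes). Of the loading and trimming genes tested 5 of 8 were higher and 2 lower, of the class Ib and other heavy chains 4 of 9 were higher and 5 lower, and of the transcription regulators 5 of 11 were higher and 4 lower. The 6 with the smallest adjusted p were Ciita, the class II counterpart of Nlrc5, at 7.13 ± 0.18, Psma7, a ring subunit of the proteasome core, at 1.46 ± 0.05, the activator subunits Psme1 and Psme2 at 1.04 ± 0.04 and 1.42 ± 0.06, Irf8, an interferon regulatory factor of myeloid cells, at 2.32 ± 0.09, and the ring subunit Psma4 at 1.42 ± 0.06.

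Within the deposited clusters of 1 type the members also differed, and these values are a description, since the clusters were made from the same cells. DC cluster 21, led by Ccl5 and Fscn1, held B2m at 4402 ± 501 (n = 8 grafts), and DC cluster 19, led by Ppt1 and Xcr1, at 1760 ± 303 (n = 12). The order was the other way for Psmb9, at 985 ± 128 in cluster 19, 793 ± 158 in cluster 21 and 389 ± 99.3 in cluster 25, which was led by Ly6d and Siglech (n = 4). Among macrophages, Psmb8 stood at 1085 ± 233 in cluster 4, led by Gm15056, Inhba and Cxcl9 (n = 13), and at 606 ± 194 in cluster 2, led by Apoe and Ccl8 (n = 11).

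Psmb8 and Psmb10 were lower at day 17 than at day 10 in macrophages, monocytes and DCs, and Psmb9 in macrophages and monocytes. Over both genotypes, 18 of the 70 combinations of member and cell type were lower and 3 higher at day 17 by edgeR at an adjusted p under 0.05, where 14.6% of all tests were lower and 14.5% higher. The 3 became 7 with total UMIs as the scale. In these fits over both genotypes, the WT and the mutant graft of a host counted as separate replicates. Which grafts share a host was not stated in the sources used here, so the p-values count grafts and not hosts. Psmb8 and Psmb10 fell in macrophages, monocytes, DCs and CD4 T cells. H2-K1 and H2-D1 passed in no type, with an unadjusted p over 0.05 in all 7.

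Psmb8 in macrophages had the smallest adjusted p of the members. In CPM, its 4 grafts stood at 1311, 1154, 1076 and 1313 in Rnls mutant day 10 and at 613, 519, 679 and 564 in Rnls mutant day 17. The WT grafts stood at 1175, 1126, 1178 and 946 at day 10 and at 564, 652, 689.8 and 690.0 at day 17. Every day 10 graft was above every day 17 graft, in both genotypes. The log2 difference was -1.05 ± 0.08 (adjusted p = 7.43148e-08). Psmb10 in macrophages stood at 365, 382, 366 and 393 in Rnls mutant day 10, 242, 156, 216 and 171 in Rnls mutant day 17, 342, 380.1, 401 and 333 in WT day 10 and 170.2, 180.3, 261 and 174 in WT day 17. The days did not overlap here either, and the log2 difference was -1.06 ± 0.10 (adjusted p = 4.37584e-07). Psmb9 in macrophages stood at 585, 527, 529 and 522 in Rnls mutant day 10, 379.5, 279, 327 and 310.4 in Rnls mutant day 17, 445, 471, 445 and 438 in WT day 10 and 280.0, 314, 417 and 365 in WT day 17. The days were again apart, with a smaller gap in WT grafts, where graft 3 of day 17 was the nearest to day 10, and the difference was -0.71 ± 0.09 (adjusted p = 4.92477e-06).

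The TAP genes and B2m also fell in macrophages, with days that overlapped. Tap1 stood at 249.7, 214, 239.7 and 199.5 in Rnls mutant day 10 and 185, 135, 157 and 119 in Rnls mutant day 17, and at 183, 204, 157 and 173 in WT day 10 and 116, 93.6, 187 and 147 in WT day 17 (log2 difference -0.64 ± 0.12, adjusted p = 0.000392216). Tap2 stood at 222, 203, 176 and 208 in Rnls mutant day 10 and 139, 117, 130.3 and 88.7 in Rnls mutant day 17, and at 139, 151, 149.6 and 117 in WT day 10 and 128, 97.1, 162 and 107 in WT day 17 (-0.61 ± 0.11, adjusted p = 0.000135049). For both genes the mutant days were apart and the WT days overlapped. B2m averaged 3321 ± 226 and 3095 ± 267 in mutant grafts and 3014 ± 166 and 2786 ± 434 in WT grafts at day 10 and 17 (-0.26 ± 0.08, adjusted p = 0.0133021), and it no longer passed with total UMIs as the scale. In all, 6 of 10 members were lower and 0 higher in macrophages, where 25.3% of the 9331 genes tested were lower. The median over the members was -0.43 and over all genes 0.02.

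**Figure D3:**
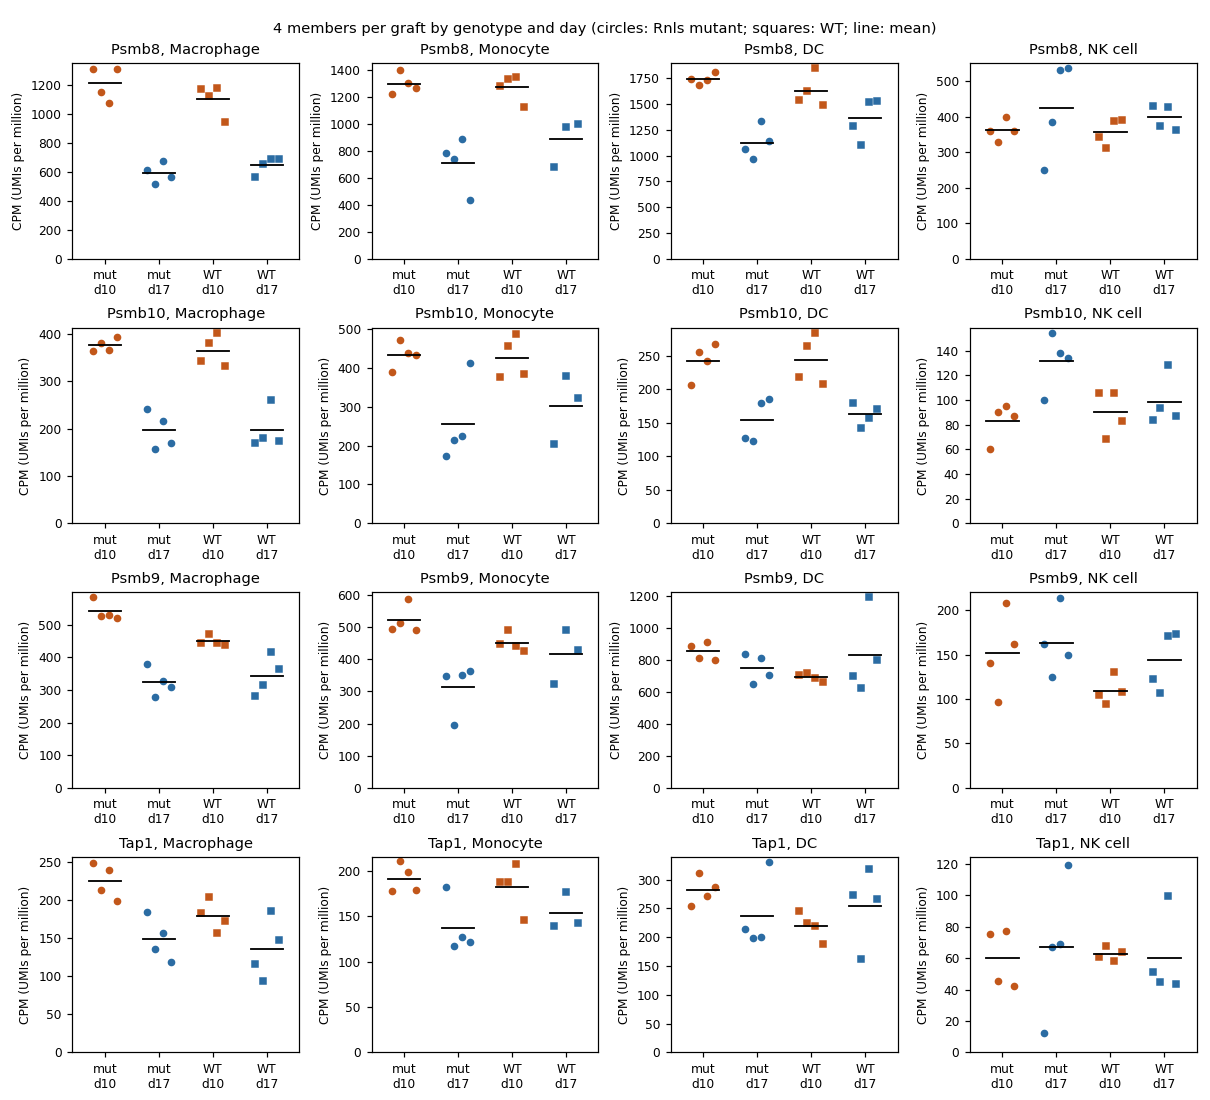
Each point is 1 graft, with CPM on a linear axis from 0, for Psmb8, Psmb10, Psmb9 and Tap1 (rows) in macrophages, monocytes, DCs and NK cells (columns), and lines mark group means. In macrophages Psmb8 lies at 946 to 1313 at day 10 and 519 to 690.0 at day 17, whereas no member passed in NK cells.

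In monocytes 4 of 10 members were lower and 0 higher, with 8.11% of all genes lower. Psmb8 stood at 1223, 1405, 1308 and 1265 in Rnls mutant day 10, 782, 739, 888 and 438 in Rnls mutant day 17, 1286, 1335, 1348 and 1127 in WT day 10 and 683, 979 and 1001 in the 3 WT day 17 grafts with enough monocytes. The days did not overlap (-0.85 ± 0.14, adjusted p = 0.00057238). Psmb10 stood at 389.9, 473, 438 and 434, then 174, 214, 224 and 414 in mutant grafts, and at 377, 458, 489 and 385, then 204, 379 and 322 in WT grafts, at day 10 and day 17 respectively. Graft 4 of Rnls mutant day 17 lay among the day 10 grafts, and graft 3 of WT day 17 was just above graft 1 of WT day 10 (-0.87 ± 0.16, adjusted p = 0.00163006). Psmb9 (-0.61 ± 0.15, adjusted p = 0.00800746) and Tap1 (-0.50 ± 0.16, adjusted p = 0.036965) were the others, and the median over the members was -0.39, against -0.06 over all genes. The Tap1 call ended in 10 of 16 cases with 1 graft left out, with total UMIs as the scale (adjusted p = 0.137), with a minimum of 20 cells (adjusted p = 0.0763), within cluster 1 and in either genotype alone. In WT grafts alone no monocyte difference passed, with 2 of 10 members at an unadjusted p under 0.05 in edgeR.

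In DCs 4 of 10 members were lower and 0 higher, with 13.6% of all genes lower, and they were not the same as in macrophages. Nlrc5 stood at 190.0, 206, 154 and 218 in Rnls mutant day 10, 105, 84.3, 92.4 and 186 in Rnls mutant day 17, 221, 189.9, 198 and 176 in WT day 10 and 108, 152, 85.8 and 95.0 in WT day 17. All but graft 4 of Rnls mutant day 17 lay below every day 10 graft (-0.82 ± 0.15, adjusted p = 0.00062719). Psmb8 averaged 1746 ± 51.2 and 1128 ± 155 in mutant and 1630.3 ± 161 and 1362 ± 204 in WT grafts (-0.43 ± 0.09, adjusted p = 0.00173122). Psmb10 differed by -0.63 ± 0.12 (adjusted p = 0.000822913), and Tapbp, which stood at 255, 258, 181 and 245, then 203, 122, 143 and 159 in mutant and 221, 197, 234 and 152, then 184, 186, 135 and 152 in WT grafts, by -0.41 ± 0.14 (adjusted p = 0.0289101) with days that overlapped. The Tapbp call ended in 10 of 16 cases with 1 graft left out, with a minimum of 20 cells (adjusted p = 0.0685), within cluster 19 and in either genotype alone. Psmb9 and the TAP genes of DCs did not pass, and the median over the members was -0.17, against -0.00362 over all genes.

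In CD4 T cells the members moved both ways. Psmb10 (-0.37 ± 0.11), Psmb8 (-0.30 ± 0.08) and B2m (-0.20 ± 0.06) were lower, 3 of 10 with 17.7% of all genes lower, and Nlrc5 (0.43 ± 0.09), Tapbp (0.32 ± 0.10) and Tap2 (0.29 ± 0.11) were higher, 3 of 10 with 18.8% of all genes higher. The Tap2 call ended in 11 of 16 cases with 1 graft left out, with DESeq2 (adjusted p = 0.0652), with no filter on low counts (adjusted p = 0.274) and with the hashtag number as a block (adjusted p = 0.0668), and the difference was -0.17 in mutant grafts alone. Nlrc5 stood at 138, 144, 134 and 158 in Rnls mutant day 10, 172, 226, 210.2 and 191 in Rnls mutant day 17, 136, 146, 142 and 137 in WT day 10 and 249.9, 239, 180.1 and 202 in WT day 17. The days did not overlap in either genotype (adjusted p = 0.000634154). The macrophage marker list summed to 18 to 30 CPM in CD4 T cells of Rnls mutant day 10, 258 to 280 in Rnls mutant day 17, 37 to 49 in WT day 10 and 58 to 98 in WT day 17, and their part in these differences was not tested. In CD8 T cells B2m alone passed, 1 of 10 with 10.8% of all genes lower, from 2778 ± 72.6 to 2409 ± 266 in mutant and from 2570.1 ± 124 to 2406 ± 259 in WT grafts (-0.26 ± 0.07, adjusted p = 0.00520206). In Treg and NK cells 0 of 10 members passed by edgeR, with 1 and 0 at an unadjusted p under 0.05, where 15.7% and 12.9% of all genes passed in either direction.

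Within each genotype, 15 combinations were lower and 1 higher in the mutant grafts, with 8.8% of all genes lower and 9.13% higher over the 7 types, and 6 were lower and 2 higher in the WT grafts, with 7.22% lower and 7.0% higher. Psmb8, Psmb10, Psmb9 and Tap1 in macrophages passed in each genotype alone, at -1.16 ± 0.12, -1.07 ± 0.14, -0.87 ± 0.12 and -0.72 ± 0.17 in mutant and -0.94 ± 0.12, -1.05 ± 0.14, -0.55 ± 0.12 and -0.55 ± 0.18 in WT grafts. Nlrc5 and Psmb10 in DCs and Nlrc5 in CD4 T cells also passed in each. H2-D1 was lower in DCs (-0.43 ± 0.13, adjusted p = 0.0365) and Treg (-0.42 ± 0.12, adjusted p = 0.0275) of the mutant grafts alone.

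The lower values at day 17 came with a different make-up of the cell types. Among macrophages, cluster 4 made up 61.7% of the cells at day 10 and 6.03% at day 17, and cluster 13, led by the heat shock genes Hspb1 and Hsph1, 21.8% and 0.868%. Cluster 2 went from 3.38% to 35.2%, cluster 5, led by Gm26917 and Gm42418, from 7.78% to 31.3%, and cluster 10, led by Retnla, from 1.84% to 14.9%. Of the monocytes, cluster 14, led by Adgre4, Pparg and Pecam1, made up 19.3% and 56.4%. Of the DCs, cluster 17, led by Cd209a, made up 41.8% and 14.7% and cluster 19 made up 20.8% and 60.6%. These shares are over all grafts of a day and were not tested. Markers of other types moved with the day as well: in macrophages the NK cell list summed to 47 to 78 CPM in day 10 grafts and 10 to 29 in day 17 grafts, and the plasmacytoid list to 441 to 736 and 292 to 559, and their part in the result was not tested.

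Within 4 single clusters, Psmb8 and Psmb10 remained lower at day 17, and neither the heavy chains nor B2m were among the genes lower there. These were the clusters with at least 2 grafts of at least 10 cells in every group. The other clusters of these types were not tested, and cluster 4 held 6.03% of the macrophages at day 17. In macrophage cluster 4 (13 grafts with at least 10 cells), Psmb8 averaged 1232 ± 118 at day 10 (n = 8) and 849 ± 159 at day 17 (n = 5). The log2 difference was -0.58 ± 0.12 for Psmb8, -0.56 ± 0.12 for Psmb10, -0.48 ± 0.14 for Nlrc5 and -0.40 ± 0.13 for Psmb9, so 4 members were lower, with 8.4% of all genes lower, and H2-D1 was higher by 0.49 ± 0.11 (adjusted p = 0.00693). In macrophage cluster 5 (16 grafts) 3 members were lower, with 9.76% of all genes lower: Psmb10 by -0.78 ± 0.18, Nlrc5 by -0.70 ± 0.19 and Psmb8 by -0.57 ± 0.15. In monocyte cluster 1 (13 grafts) 2 members were lower, with 2.51% of all genes lower, Psmb10 by -0.97 ± 0.14 and Psmb8 by -0.75 ± 0.12. In DC cluster 19 (12 grafts) Psmb10 (-0.49 ± 0.17) and Psmb8 (-0.46 ± 0.11) were lower, with 11.8% of all genes lower, and B2m (0.44 ± 0.11) and H2-K1 (0.33 ± 0.12) were higher. Tap1 and Tap2 did not pass within any of these 4 clusters, and the Psmb8 and Psmb10 differences of macrophages were smaller in either cluster than over the whole type.

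**Figure D4:**
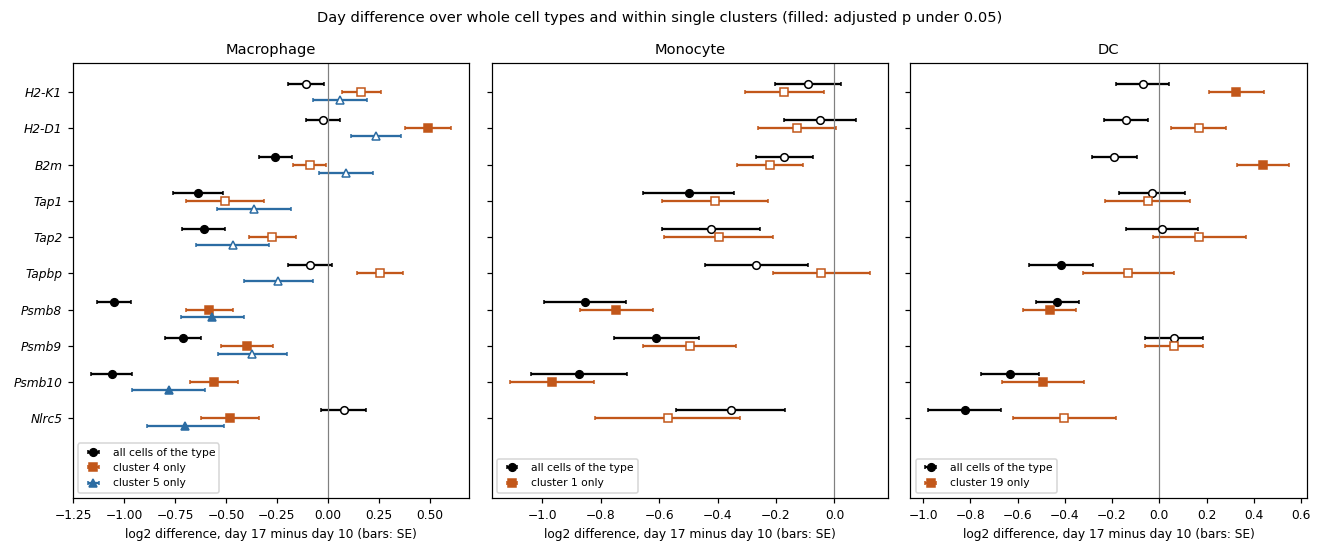
The log2 difference of day 17 minus day 10 (x axis, bars for the SE, filled for an adjusted p under 0.05) is shown for each member over all cells of a type and within the named clusters. Psmb8 and Psmb10 lie left of 0 and are filled in each, whereas H2-D1 in macrophage cluster 4, at 0.49, and B2m in DC cluster 19, at 0.44, lie right of 0.

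The other genes of the pathway were tested in the same fits, where 14.6% of all tests over the 7 types were lower and 14.5% higher. Of the proteasome list, 16 of 17 genes were lower in macrophages, 10 of 17 in monocytes, 13 of 17 in DCs, 15 of 17 in CD4 T cells and 5 of 17 in CD8 T cells, and none was higher in any of the 7 types. Its median was -0.85 in macrophages, where that of all genes was 0.02. The 6 with the smallest adjusted p in macrophages were Psme2 (-1.52 ± 0.11), Psme1 (-0.94 ± 0.07), Psmb6 (-1.16 ± 0.09), Psmb3 (-0.98 ± 0.08), Psma7 (-0.94 ± 0.08) and Psmb2 (-0.93 ± 0.09). Psmb6 is the constitutive subunit whose place Psmb9 takes, so constitutive and immune subunits were lower together. Over the 7 types, 12 of 54 tests of class Ib and other heavy chains were lower and 2 higher, 8 of the lower ones in macrophages, and 19 of 52 tests of loading and trimming genes were lower and 2 higher. Of the 68 tests of transcription regulators, 14 were lower and 9 higher. Among those lower in macrophages were Irf8 (-0.91 ± 0.10) and Irf1 (-0.46 ± 0.12), transcription factors of the interferon response, which were named after their values were seen.

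Because immune and constitutive subunits share the fall, their UMI ratio was formed in each graft. In macrophages the ratio of Psmb10 to Psmb7 was 3.57 ± 0.252 at day 10 (8 grafts, 3.25 to 3.97) and 2.46 ± 0.361 at day 17 (8 grafts, 2.03 to 3.01), with no overlap. The ratio of Psmb9 to Psmb6 went the other way, from 1.52 ± 0.210 (1.29 to 1.90) to 2.06 ± 0.315 (1.68 to 2.58). The ratio of Psmb8 to Psmb5 was 6.15 ± 0.757 and 5.48 ± 0.723, and its days overlapped. The ratios are descriptions of these libraries, and the counts of 3′ ends do not give the amounts of the subunits relative to each other.

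Between genotypes no member differed at the adjusted threshold on either day. At day 10, 0 of the 70 combinations were called by edgeR (0.109% of all tests), with 12 higher and 0 lower in Rnls mutant grafts at an unadjusted p under 0.05 (6.36% of all tests had one, in either direction), and DESeq2 called 1, H2-D1 in CD4 T cells. At day 17, 0 were called by edgeR (0.154% of all tests), with 1 higher and 6 lower at an unadjusted p under 0.05 (6.91% of all tests), and DESeq2 called 0. Over both days 0 were called (0.00233% of all tests), with 4 higher and 1 lower at an unadjusted p under 0.05 (5.64% of all tests) and 0 by DESeq2.

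The unadjusted differences at day 10 were mostly those of H2-D1 and Tap2. H2-D1 in CD4 T cells stood at 2336, 2573, 2735 and 2632 in Rnls mutant day 10 and at 2039, 2071, 1991 and 2156 in WT day 10, with every mutant graft above every WT graft. At day 17 the mutant grafts stood at 2231, 2321, 2342 and 2538 and the WT grafts at 2715, 2434, 3012 and 2599, and the groups overlapped with WT the higher. The day 10 log2 difference of H2-D1 was positive in all 7 types, from 0.21 in monocytes to 0.47 in DCs, with groups apart in 6 of them and overlapping in DCs (two-sided exact permutation test of 70 assignments, p = 0.0286 in each of the 6, the smallest value the test allows, and 0.0571 in DCs). H2-D1 and Tap2 were picked after their day 10 values were seen, so their exact p-values are descriptions, with no adjustment for that choice. A WT and a mutant graft of a day came from 1 host, but which hashtags mark the same host was not stated in the sources used here, so the test treats the grafts as separate, and a test over 4 pairs could not go below a two-sided exact p of 0.125. Tap2 in CD4 T cells stood at 92.0, 98.3, 78.6 and 81.3 in Rnls mutant day 10 and 53.0, 58.0, 68.0 and 64.1 in WT day 10. In DCs Tap2 stood at 278, 236, 178 and 255 against 123, 159, 157 and 132, and in NK cells at 85.2, 96.8, 65.4 and 70.6 against 56.3, 42.1, 33.2 and 43.4. The mutant grafts were above the WT grafts in each of these types. The log2 difference of Tap2 was positive in all 7 types, from 0.31 in Treg to 0.79 in NK cells, with groups apart in 6 and overlapping in Treg (exact permutation p = 0.286 there). The NK cell values rest on 34, 15, 11 and 30 UMIs of Tap2 in mutant and 40, 13, 16 and 21 in WT grafts. How many of all genes had the same direction in all 7 types was not counted. The groups of a cell type share their grafts and library with those of every other type, so the types are not independent of each other.

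Counted over the members, every mutant graft was above every WT graft in 18 of 70 combinations at day 10, 6 of H2-D1, 6 of Tap2, 3 of Psmb9, 2 of B2m and 1 of Tap1, where 3.25% of all tests had such groups. At day 17, mutant grafts were all above in 2 (B2m and H2-K1, 1 type each, where 2.24% of all tests had such groups) and all below in 2 (H2-D1 and H2-K1, 1 type each, where 2.56% did). At day 10, WT grafts were above in no combination.

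**Figure D5:**
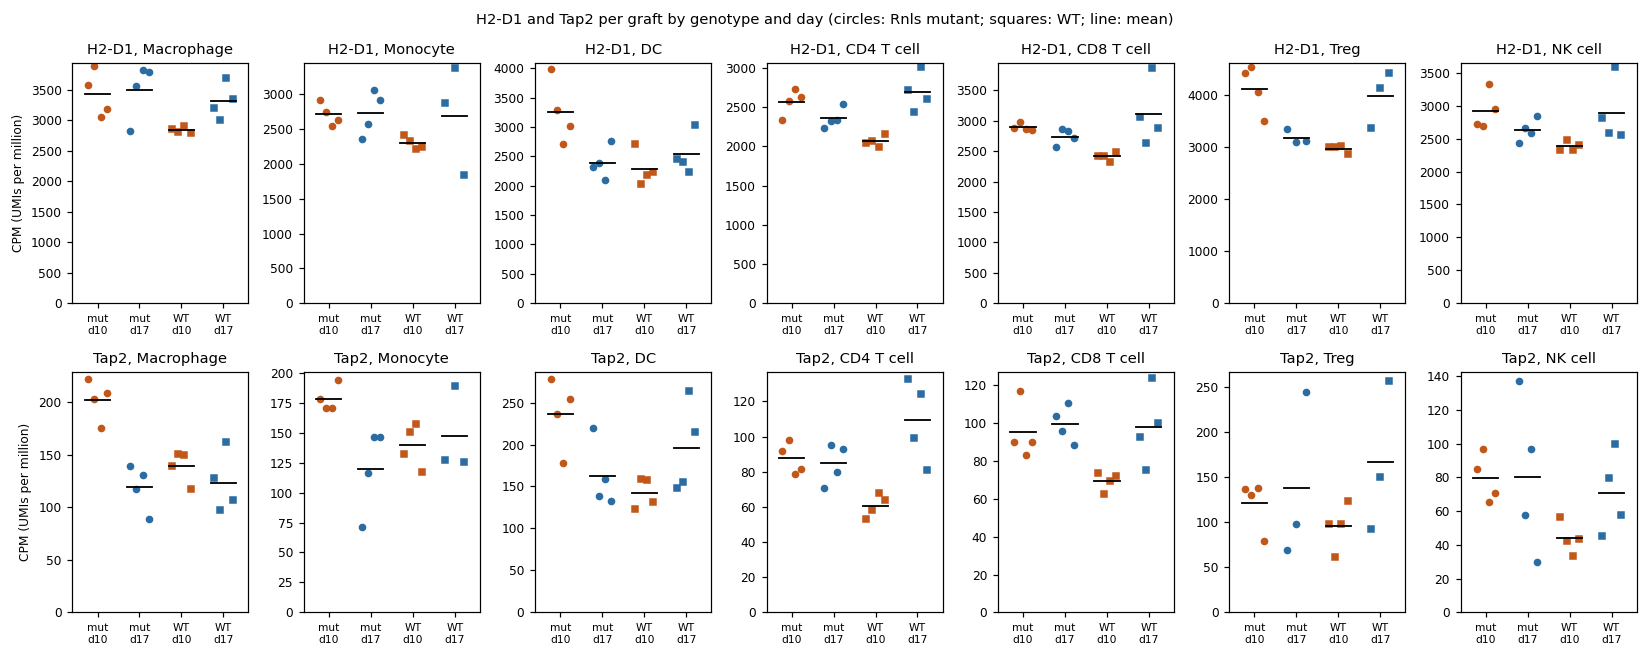
Each point is 1 graft, with CPM on a linear axis from 0, for H2-D1 (upper row) and Tap2 (lower row) in 7 cell types, and lines mark group means. At day 10 the mutant grafts lie above the WT grafts in 6 of 7 types for each gene, and at day 17 they overlap except for H2-D1 in Treg.

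The difference between genotypes itself differed between days for 2 combinations. For Tap2 in CD4 T cells the mutant minus WT difference was 0.47 ± 0.14 at day 10 and -0.45 ± 0.16 at day 17, where the grafts stood at 70.8, 95.3, 80.1 and 93.0 in mutant and 133, 98.99, 124 and 80.9 in WT. Day 17 minus day 10 of that difference came to -0.92 ± 0.22 (adjusted p = 0.0480), and 0.0509% of all genes were lower in that test. Leaving out 1 graft ended this call in 13 of 16 cases, and the hashtag number as a block moved it to an adjusted p of 0.0823. For H2-D1 in Treg the grafts stood at 4427, 4539.8, 4059 and 3509 in Rnls mutant day 10, 3014, 3008, 3020.2 and 2868 in WT day 10, 3350.3, 3096 and 3123 in Rnls mutant day 17 and 3373, 4138 and 4434 in WT day 17. Mutant grafts were the higher at day 10 and WT grafts the higher at day 17, without overlap on either day. For the change between days the test gave -0.77 ± 0.16 (adjusted p = 0.0157), and 0.3% of all genes were lower in that test. With no filter on low counts it was -0.65 and did not pass. The same contrast was negative for H2-D1 in all 7 types and for Tap2 in all 7.

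The members varied together only in part. Over 109 graft and cell type sums, each centred on its cell type mean, the correlation of a member with the mean z score of the other members was highest for B2m (Pearson r = 0.54) and Tap1 (0.52) and lowest for Psmb10 (0.24) and Nlrc5 (0.22). The closest pairs were H2-D1 with H2-K1 (0.67) and B2m with H2-K1 (0.52), and the farthest was Psmb10 with H2-D1 (-0.16). Of 5979 genes with at least 20 CPM, the 10 most like the mean of the members were H2-T22 (0.65), AW112010 (0.62), Tspo (0.61), H2-T23 (0.61), Ly6a (0.60), H2-Q7 (0.56), Pdcd1lg2 (0.55), Gem (0.55), Socs1 (0.54) and Hilpda (0.53), where the median gene stood at 0.02 and the highest 1 in 100 began at 0.39. The points share grafts, libraries and depth, so these values are descriptions. H2-T22, H2-T23 and H2-Q7 are heavy chains of the same family as H2-K1 and H2-D1, whose split of UMIs is uncertain as said above.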

How the data were processed

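Per the labels, the submitters' processing notes name Cell Ranger and mm10. Versions and settings are not given in the sources used here. The authors deposited raw counts of UMIs per gene and cell, unnormalised, with a hashtag, cluster and cell type for each cell. Filters on cells and the naming of cell types were the authors' and were used as deposited. Doublets were not searched for here.

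UMIs were summed per graft (library and hashtag) and cell type where a graft had at least 10 cells. With R 4.3.3, the quasi-likelihood test of edgeR 4.0.16 (glmQLFit, glmQLFTest) was run after TMM scaling and filterByExpr, one fit per cell type with 4 groups, with Benjamini-Hochberg adjustment over all genes tested and a threshold of 0.05. Contrasts were genotype at each day, their mean and difference, and day over and within genotypes. The cell type comparison had the graft as a block. Single values were compared with exact permutation tests (SciPy 1.17.1) on CPM, or on log2(CPM + 1) for neighbouring cell types. Scripts were tested on simulated data. The graft was the replicate, also where a WT and a mutant graft came from 1 host. For genotype and day, the p-values measure the spread between grafts of 1 library. Those of the myeloid and lymphoid contrast rest on the spread of graft and cell type sums, of which each graft gives several. The sign-flip tests run over the grafts of all libraries together.

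All 10 members are named. Of the 4 other lists (53 genes, 52 of them in the table), at most 6 genes per contrast are named, those with the smallest adjusted p, with exceptions stated. The members and lists were chosen with earlier results of these data known. Positions came from GENCODE and promoters from RefSeq. Alternatives were DESeq2 1.42.0, total UMIs as the scale, no filter on low counts, 20 cells, the hashtag number as a block, log2(CPM + 10), each graft left out and, added after seeing the data, single clusters and single genotypes. Counting precision is limited by 1742746 to 9729233 UMIs per graft, and more so by the smaller sums of each cell type within it. Those sums held as few as 41086 UMIs in monocytes, 43285 in Treg and 67046 in NK cells. Tap1, for example, had 1 UMI in NK cells of graft 1 of Rnls mutant day 17.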

Additional observations from a re-analysis of the deposited data

Results flagged for a closer look

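In groups of 4 grafts, a graft was set apart where its gap to the nearest other graft, divided by the range, exceeded Dixon's 95% critical value. This was the case in 5 of 76 groups, over the 20 combinations of gene and cell type whose graft values were examined, and chance gives about 1 in 20. They were Psmb10 in macrophages of WT day 17 (graft 3, 261 CPM, the highest), Psmb9 in macrophages of Rnls mutant day 10 (graft 1, 585, the highest), B2m in macrophages of WT day 10 (graft 1, 3260.0, the highest), Tapbp in DCs of Rnls mutant day 10 (graft 3, 181, the lowest) and H2-D1 in Treg of WT day 10 (graft 4, 2868, the lowest).

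The genotype effect differed between days for Tap2 in CD4 T cells, by -0.92 on the log2 scale, and for H2-D1 in Treg, by -0.77, both by the interaction test of edgeR. The Tap2 call ended with the hashtag number as a block (adjusted p = 0.0823) and in 13 of 16 cases with 1 graft left out, and the H2-D1 call ended with no filter on low counts (-0.65, adjusted p = 0.29). Each group is 1 library, so the day, the genotype and the library cannot be told apart in these values.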

How the results depend on the processing

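Of the counts of calls, 52 of 65 values under an alternative stayed within 1.5 times of the value reported. The genotype count at day 10 was 1 with DESeq2 and 0 to 1 with 1 graft left out. The count of differences between days was 1 with no filter, 1 with 20 cells (Treg could then not be fitted) and 1 to 2 with 1 graft left out. Members lower at day 17 numbered 6 in WT grafts alone and 16 to 19 with 1 graft left out. Members higher numbered 7 with total UMIs as the scale, 1 with no filter, 1 in mutant grafts alone and 2 to 4 with 1 graft left out. Members lower were 3 in macrophage cluster 5, 0 in monocytes of WT grafts (2 at an unadjusted p under 0.05), 2 in monocyte cluster 1, 2 in DCs of WT grafts and 2 in DC cluster 19, and with 1 graft left out 6 in macrophages, 3 to 5 in monocytes and 3 to 4 in DCs. Members higher in myeloid types were 8 to 10 and neighbour pairs 23 to 27 with 1 graft left out. Directions turned for B2m in macrophage cluster 5 (0.088), for Tap2 in CD4 T cells of mutant grafts (-0.17), and between lineages with total UMIs for H2-K1 (-0.16), H2-D1 (-0.0166) and Nlrc5 (-0.11), and for H2-K1 without graft 1 (-0.0086) or graft 4 (-0.0046) of Rnls mutant day 10, with values up to 0.0816 for the other grafts. The cause was not tested. With total UMIs as the scale the median day difference of all genes shifted by up to 0.16, and B2m in macrophages, CD4 and CD8 T cells no longer passed.

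With the hashtag number as a replicate block the count of differences between days was 1, since Tap2 in CD4 T cells no longer passed (-0.93, adjusted p = 0.0823), nor did its day difference (0.29, adjusted p = 0.0668). Same-numbered grafts deviated together in 14 of 53 pairs (correlation over 0.1, median 0.0251). Among them was hashtag 1 at day 10, whose pair exceeded 0.1 in 7 of 7 types (0.105 to 0.335). These correlations cannot decide whether equal numbers mark 1 host, since a shared host need not move most genes. The sources used here do not state it, and the numbers were not taken to pair grafts.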
